A study of Mus musculus with 3 samples.

Results

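The genes described here encode the extracellular matrix and mark the stromal cells that make much of it. They are 45 named genes: collagens, laminins, other matrix proteins, and genes of fibroblasts and contractile cells. Each was found on the array through the RefSeq accession of its probes. All 45 had a probe, 60 probes of 55681 distinct ones, and none of the 60 was saturated. A gene was tested if a probe of it cleared background on every array for RL or for control. This left 44 of the 45 genes among 21743 genes and transcripts tested. The exception was Col15a1, a basement membrane collagen, whose 3 probes were at background.

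The cells were primary cultures of mammary tumors from 3 MMTV-PyMT mice, called tumors 1, 2 and 3, in which the MMTV promoter drives the polyoma middle T oncogene mainly in mammary epithelium. From each tumor, 1 culture was treated with the RANK ligand RANKL (RL) for 24 h and 1 control culture was left untreated, in medium with serum, cholera toxin, insulin and EGF in all cases. The labels call these primary tumor cultures. The paper names another series for its preclinical arrays, and its methods were matched to these arrays by the labels. Those methods describe cells of tumor transplants plated on Matrigel, an extract of basement membrane, with RL added a day later. Whether these cultures grew on that extract is not stated in the labels. The labels state an RL dose of 1000 µg/mL and the methods 1 µg/mL. Both cultures of a tumor shared 1 two-color array, with RL in Cy3 for tumors 1 and 3 and in Cy5 for tumor 2, so the replicates are 3 tumors of different mice and their number limits the precision. On each array 54.6% to 56.2% of probes were well above background in a given channel. The dyes were not balanced, so a difference in the RL ratio between tumor 2 and the other tumors cannot be told apart from the dye order. Over 21721 genes with a value on every array, the log2 ratios of RL over control had a Pearson's r of 0.45 between tumors 1 and 3, -0.11 between tumors 1 and 2, and -0.11 between tumors 2 and 3. These correlations are across genes, which are not independent replicates, and over the 44 matrix and stromal genes the same pairs gave 0.37, -0.18 and -0.05.

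The extracellular matrix has a pair of main forms. The basement membrane is a thin sheet under the epithelium, built from laminin and type IV collagen networks that nidogen links together, and epithelial and myoepithelial cells secrete much of it. The interstitial matrix lies between cells and consists of fibrillar collagens, elastic fibers, proteoglycans and adhesive glycoproteins such as fibronectin, made largely by fibroblasts. In the mammary gland, contact with laminin helps epithelial cells keep their polarity, and stiff, collagen-rich stroma is a known feature of mammary tumors.

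The genes fall into 7 lists. Basement membrane genes were Col4a1, Col4a2, Col15a1, Col18a1, Lama1, Lama3, Lama5, Lamb1, Lamb3, Lamc1 and Nid1. Interstitial matrix genes, 27 in all, comprised fibrillar collagens (Col1a1, Col1a2, Col3a1, Col5a1, Col5a2), type VI and fibril-associated collagens (Col6a1, Col6a2, Col6a3, Col12a1, Col14a1), elastic fiber genes and cross-linking enzymes (Eln, Fbn1, Fbln1, Fbln2, Lox, Loxl1, Loxl2), small leucine-rich proteoglycans (Dcn, Lum, Bgn), and adhesive and matricellular glycoproteins (Fn1, Sparc, Spp1, Postn, Tnc, Thbs1, Thbs2). The stromal and contractile cell genes were Vim, Acta2, Tagln, Pdgfra, Pdgfrb, Fap and Thy1.

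The widest differences among these cultures lay between tumors and not between RL and control. The level of a gene in a tumor, the mean log2 intensity of its probe over both channels, spanned more than 1 between the highest and lowest tumor for 26 of the 44 genes. Over all genes tested the share with such a range was 7.41%. The median range was 1.21 for the 44 genes (2.31-fold) and 0.27 for all genes (1.21-fold). Among genes with a mean level of at least 8, a bound chosen after the data were seen, 23 of 38 matrix and stromal genes had a range over 1, against 8.55% of all such genes. Each tumor was on an array of its own, so tumor and array cannot be told apart and no test was made. Fewer cells of a type and less RNA per cell cannot be told apart in these bulk cultures either.

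The order of the tumors was also read in the control and RL cultures apart. Both cultures of a tumor were read from the same spots of the same array, so an array or spot effect enters both. Genes with a range over 1 were picked by the mean of both channels, so a shared order is likely from the start. A shared order is therefore no independent repeat of a difference between tumors. Of the 26 genes with a range over 1, 22 had their tumors in the same order in the control and in the RL cultures, or 84.6%, against 89.9% of all genes with such a range. With no bound on the range, 32 of the 44 genes had the same order, or 72.7%, against 47.4% of all genes. For 43 of the 44 genes the range between tumors was larger than the RL change in any tumor, against 69.8% of all genes. The exception was Col4a1, with a range of 0.39 and an RL change of 0.41 in tumor 1. The level was lowest in tumor 1 for 29 of the 44 genes, and highest in tumor 3 for 23, in tumor 2 for 18 and in tumor 1 for 3. Over 21721 genes it was lowest in tumor 1 for 7976, and highest in tumor 3 for 5464, in tumor 2 for 8379 and in tumor 1 for 7878. With tumor 1 left out, 13 of the 44 genes still differed by more than 1 between the remaining tumors, against 3.51% of all genes. The counts were 19 without tumor 2, against 4.05%, and 15 without tumor 3, against 4.63%.

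Basement membrane and interstitial matrix differed in these counts. A range over 1 was found for 2 of 10 basement membrane genes, with a median range of 0.55, and for 20 of 27 interstitial genes, with a median of 1.37. Leaving out tumor 1, 2 or 3 gave 0, 2 and 1 basement membrane genes and 11, 14 and 12 interstitial genes. The stromal and contractile cell genes lay between them, with 4 of 7 and a median of 1.14. In further genes of the same kinds the contrast was narrower, with 4 of 16 further basement membrane genes (median 0.62) and 10 of 24 further interstitial genes (median 0.90) over 1. No test of these differences was made.

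**Figure D1:**
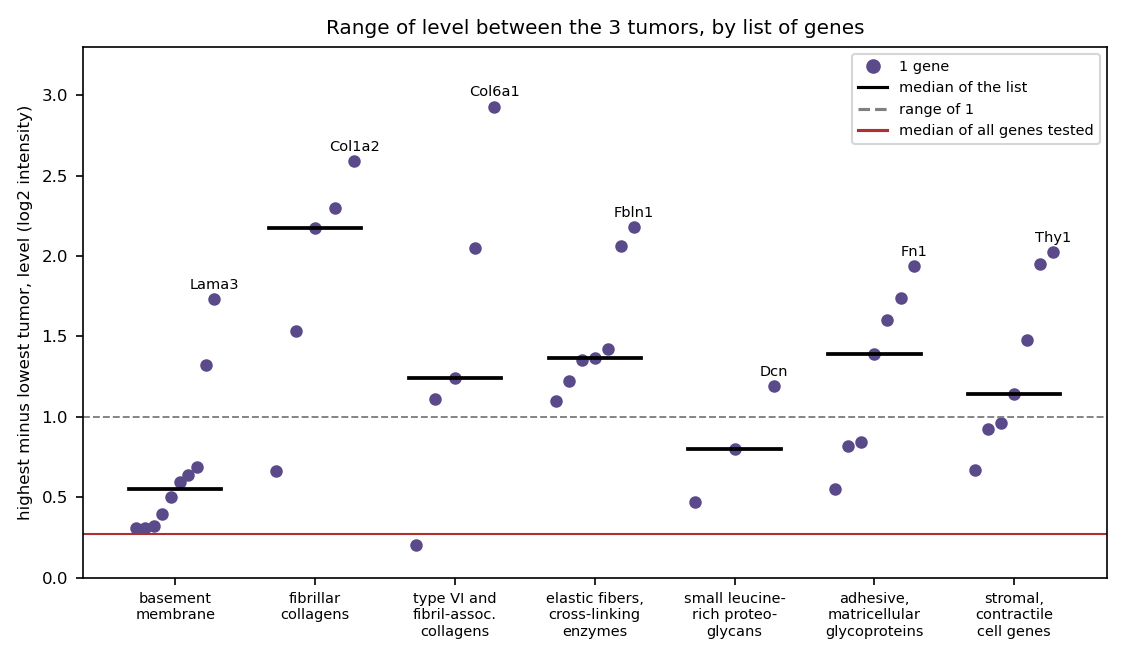
Range of level between the 3 tumors (highest minus lowest, log2 intensity, vertical axis) for the tested genes of each of the 7 lists, 1 point per gene, with the median of each list as a black bar and the gene of widest range named. Most basement membrane genes lie under the dashed line at 1, while 4 of 5 fibrillar collagens lie above it, and the red line marks the median of all genes tested, 0.27.

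The fibrillar collagens, which form the banded fibers that give tissue its tensile strength, had the widest ranges of any list, with a median of 2.17. Col1a1 and Col1a2 encode the chains of type I collagen. The level of Col1a1 was 11.56, 10.37 and 12.67 in tumors 1, 2 and 3, and that of Col1a2 was 11.57, 10.07 and 12.66. Tumor 3 was the highest and tumor 2 the lowest for both chains, 4.92-fold apart for Col1a1 and 6.02-fold for Col1a2. Col3a1, the chain of type III collagen, had levels of 9.74, 8.72 and 10.89 in the same order of tumors. Col5a1, a chain of the type V collagen that sets fiber diameter, instead had its lowest level in tumor 1, with 8.31, 9.85 and 9.45. Col5a2, its partner chain, was at 7.13, 7.13 and 7.79, a range under 1.

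The chains of type VI collagen, which forms beaded filaments around cells, did not share an order of tumors. Col6a1 had the widest range of the 44 genes, 2.93 or 7.61-fold, with levels of 8.87, 11.80 and 10.01. Col6a2 had the same order, with 7.11, 9.16 and 7.80. Col6a3 was lowest in tumor 2, with 9.90, 9.53 and 10.77, as the type I and III collagens were. Col12a1, a collagen that binds to the surface of type I fibers, was at 9.68, 10.38 and 10.79.

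By their brightest probes, all 7 elastic fiber genes and cross-linking enzymes had a range over 1 and their lowest level in tumor 1. Other passing probes had ranges of 0.42 and 0.57 for Loxl2, a cross-linking enzyme, and 0.82 for Loxl1. Fbln1, which encodes the elastic fiber protein fibulin 1, had the widest range, with levels of 6.60, 8.78 and 7.59. Elastin itself, Eln, was at 6.27, 8.34 and 6.69. Lox and Loxl1, enzymes that cross-link collagen and elastin, had their highest levels in tumor 3, at 7.57 and 8.73. Of the proteoglycans that coat collagen fibers, only decorin, Dcn, had a range over 1, with 9.44, 9.24 and 10.43, while lumican (Lum) and biglycan (Bgn) had ranges of 0.80 and 0.47.

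Fn1, which encodes the adhesive glycoprotein fibronectin, was at 14.12 in tumor 1, 16.06 in tumor 2 and 15.78 in tumor 3, a range of 3.83-fold. Sparc, a collagen-binding matricellular protein, was at 14.07, 15.46 and 15.00 by its brightest probe, while another of its passing probes was at 7.97, 7.54 and 7.26, in another order of tumors. Tenascin C, Tnc, had its highest level in tumor 3, with 7.73, 7.63 and 9.37. Spp1, which encodes osteopontin, a secreted phosphoprotein that binds integrins and is also made by mammary epithelium and present in milk, went the other way. It was the only interstitial gene with its highest level in tumor 1, with 15.51, 14.96 and 14.95.

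**Figure D2:**
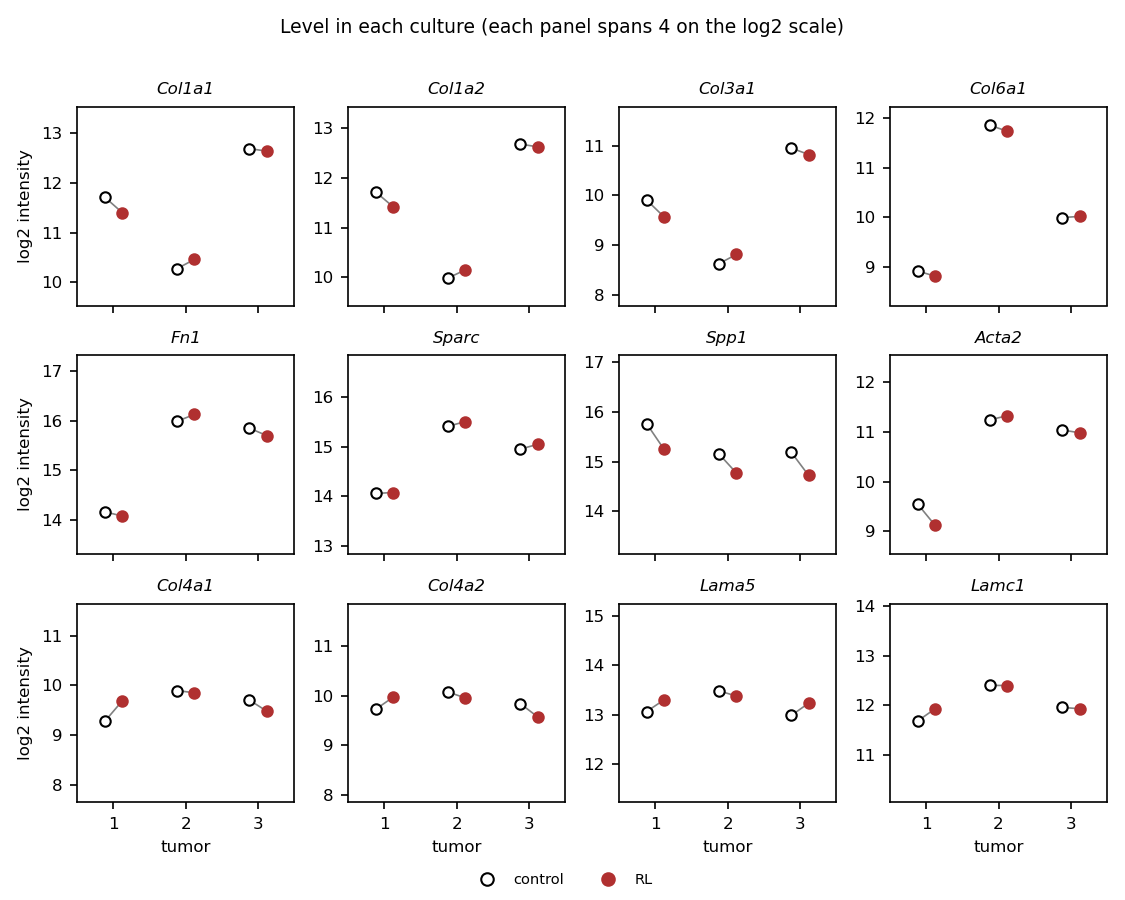
Level (log2 intensity, vertical axis) of 12 genes in the control culture (open circles) and the RL culture (filled circles) of each tumor, joined by a line within a tumor, with every panel spanning 4 on the log2 scale. The tumors differ by more than the cultures of a tumor for Col1a1, Col1a2, Col3a1, Col6a1, Fn1, Sparc and Acta2, whereas for Col4a1, Col4a2, Lama5 and Lamc1 the levels averaged over both cultures of a tumor differ by at most 0.60, and for Spp1 the RL culture lies under the control culture in each tumor.

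In the basement membrane, Col4a1 and Col4a2, the chains of its main collagen, had ranges of 0.39 and 0.31. Lama5, the alpha chain of a laminin found under most epithelia, was at 13.18, 13.43 and 13.11, and Lamc1, the gamma chain that most laminins share, at 11.81, 12.40 and 11.95. The exceptions were Col18a1, whose protein contains the endostatin fragment, with 11.03, 12.35 and 12.25 and a range of 0.84 by its other probe, and Lama3, with 7.55, 8.42 and 9.28. Lama3 and Lamb3 encode the alpha and beta chains of the laminin that anchors basal epithelial cells at hemidesmosomes. Lamb3 had the same order of tumors, with 11.57, 11.80 and 12.26. Of the 16 tested among 21 further basement membrane genes, 9 were lowest in tumor 1 and 7 were highest in tumor 1, so they shared no order of tumors.

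Among the stromal and contractile cell genes, Acta2, which encodes smooth muscle actin of myoepithelial cells and myofibroblasts, was at 9.34, 11.28 and 11.01. Tagln, another contractile gene, was at 10.02, 10.28 and 11.16. Vim, the intermediate filament of mesenchymal cells, was at 12.84, 13.80 and 12.91. The receptors for platelet-derived growth factor differed in order, with Pdgfra, a fibroblast marker, at 7.87, 8.79 and 8.14, and Pdgfrb, found on fibroblasts and pericytes, at 8.12, 8.20 and 9.60. Thy1, a surface protein of fibroblasts, was at 8.81, 7.49 and 9.52.

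Markers of cell types were read on the same arrays, and their part in the differences between tumors was not tested. Of 11 fibroblast markers, all but Dpt and Pdpn belong to the 45 genes themselves, so their values are not independent of those above; 10 were tested and 7 had a range over 1, with a median range of 1.68. Their summed normalized intensity in the control cultures was 10700, 7240 and 20700 in tumors 1, 2 and 3, and in the RL cultures 8820, 8250 and 20200, with Col1a1 the brightest and only Dpt not well above background. Of 8 myoepithelial or basal markers, of which Acta2 is also 1 of the 45 genes, 7 were tested and all 7 had a range over 1. Their sums were 44800, 80900 and 129000 in the control cultures and 49700, 74800 and 106000 in the RL cultures, with Krt14 the brightest and Myh11 not well above background. Of these 7, 4 were lowest in tumor 1, 1 in tumor 2 and 2 in tumor 3. All 8 luminal epithelial markers were tested and 3 had a range over 1, with sums of 336000, 218000 and 388000 in the control cultures and 268000, 249000 and 290000 in the RL cultures, and Krt18 the brightest.

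The other cell types varied less. None of the 6 pericyte markers and none of the 6 myeloid markers had a range over 1. Over all genes the share was 7.41%, so a count of 0 among so few genes says little. Some of these markers were dim, such as Rgs5 at 6.37, 6.25 and 6.73 and Ptprc at 6.26, 6.20 and 6.50. Others were bright, such as Mcam and Itgam. The median range was 0.40 for pericyte and 0.52 for myeloid markers, against 0.27 for all genes. Their control sums were 34000, 20900 and 30400 for pericyte markers, of which Mcam was the brightest, and 7320, 7020 and 8180 for myeloid markers, of which Itgam was the brightest. In the RL cultures the sums were 25400, 27500 and 22100 for pericyte markers and 6780, 7670 and 7540 for myeloid markers. The RL ratio of Mcam was -0.45, 0.48 and -0.50, with the sign of tumor 2 opposite as its dye order was, and its mean with the dye term was 0.00. Of 8 endothelial markers only Pecam1, Kdr and Cldn5 were tested, and the defining genes Cdh5, Tek, Emcn, Vwf and Tie1 were not well above background. Their control sums were 2170, 2190 and 1940 and their RL sums 2390, 2120 and 2170, with Kdr the brightest. The lymphocyte genes Cd8a and Ms4a1 and the adipocyte genes Adipoq, Plin1, Lep and Cidec were not well above background. The 2 lymphocyte genes tested, of which Cd4 was the brighter, summed to 1610, 1380 and 1410 in the control cultures and 1620, 1380 and 1330 in the RL cultures. Retn, the only adipocyte gene tested, was at 97.4, 92.8 and 89.7 in the control cultures and 87.6, 108 and 81.7 in the RL cultures.

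**Figure D3:**
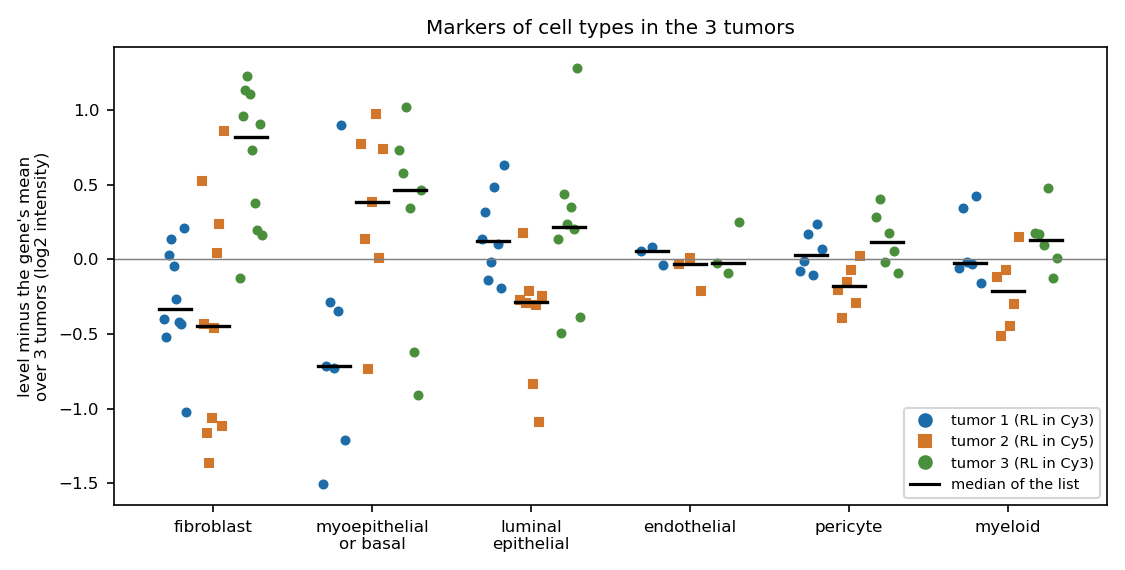
Level of each tested marker gene in each tumor minus the mean of that gene over the 3 tumors (log2 intensity, vertical axis), by cell type, 1 point per gene and tumor, with medians as black bars. Fibroblast markers are mostly highest in tumor 3 and myoepithelial or basal markers spread widely in all tumors, with 4 of 7 lowest in tumor 1, while endothelial, pericyte and myeloid markers stay closer to 0.

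The next comparison was the effect of 24 h of RL within each tumor. No matrix or stromal gene passed an adjusted p of 0.05 from limma in either direction. Over all genes 0.0046% passed as higher and 0.023% as lower with RL. At an unadjusted limma p under 0.05, 0 of the 44 genes were higher and 4 were lower (Spp1, Col12a1, Lox and Pdgfra), against 3.5% and 3.58% of all genes. A rank product called 1 of the genes lower, Spp1, and 0 higher, against 0.207% and 0.147% of all genes. With a dye term in limma, 1 of the genes was lower, again Spp1, and 0 were higher, against 0.745% and 0.566% of all genes. Without tumor 2, the array with the other dye order, limma called 1 gene higher (Col18a1) and 3 lower (Spp1, Col12a1 and Fbn1), against 2.58% and 4.24% of all genes.

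By direction alone, 3 genes (Nid1, Tnc and Sparc) had ratios above 0 in all 3 tumors, against 14.1% of all genes, and 11 had ratios below 0 in all 3, against 13.6%. The median log2 ratio of the 44 genes was -0.04, with -0.08, -0.01 and -0.04 in tumors 1, 2 and 3. The basement membrane list had a median of 0.06, with 0.23, -0.02 and 0.04 in the 3 tumors, and 7 of 10 means were above 0, against 10659 of 21721 over all genes. Leaving out tumor 1 moved this median to -0.0098 and put the means of Col4a1, Lamb3 and Lamc1 below 0. The interstitial list had a median of -0.07, with -0.16, -0.00 and -0.06, and 22 of 27 means were below 0, against 11062 of 21721. The stromal and contractile list had a median of -0.03, with -0.21, 0.08 and -0.05. The medians over all genes were -0.01, 0.01 and -0.01 in the same tumors. With the dye term the basement membrane, interstitial and stromal medians were 0.038, -0.051 and 0.0089. Without tumor 1 the stromal median was 0.028, so its sign was not stable. The separation of basement membrane from interstitial matrix was widest in tumor 1 and near 0 in tumor 2. With each array centered on its median in place of loess, the median of all genes shifted to -0.11, and relative to it the basement membrane list was at 0.02 and the interstitial list at -0.11.

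**Figure D4:**
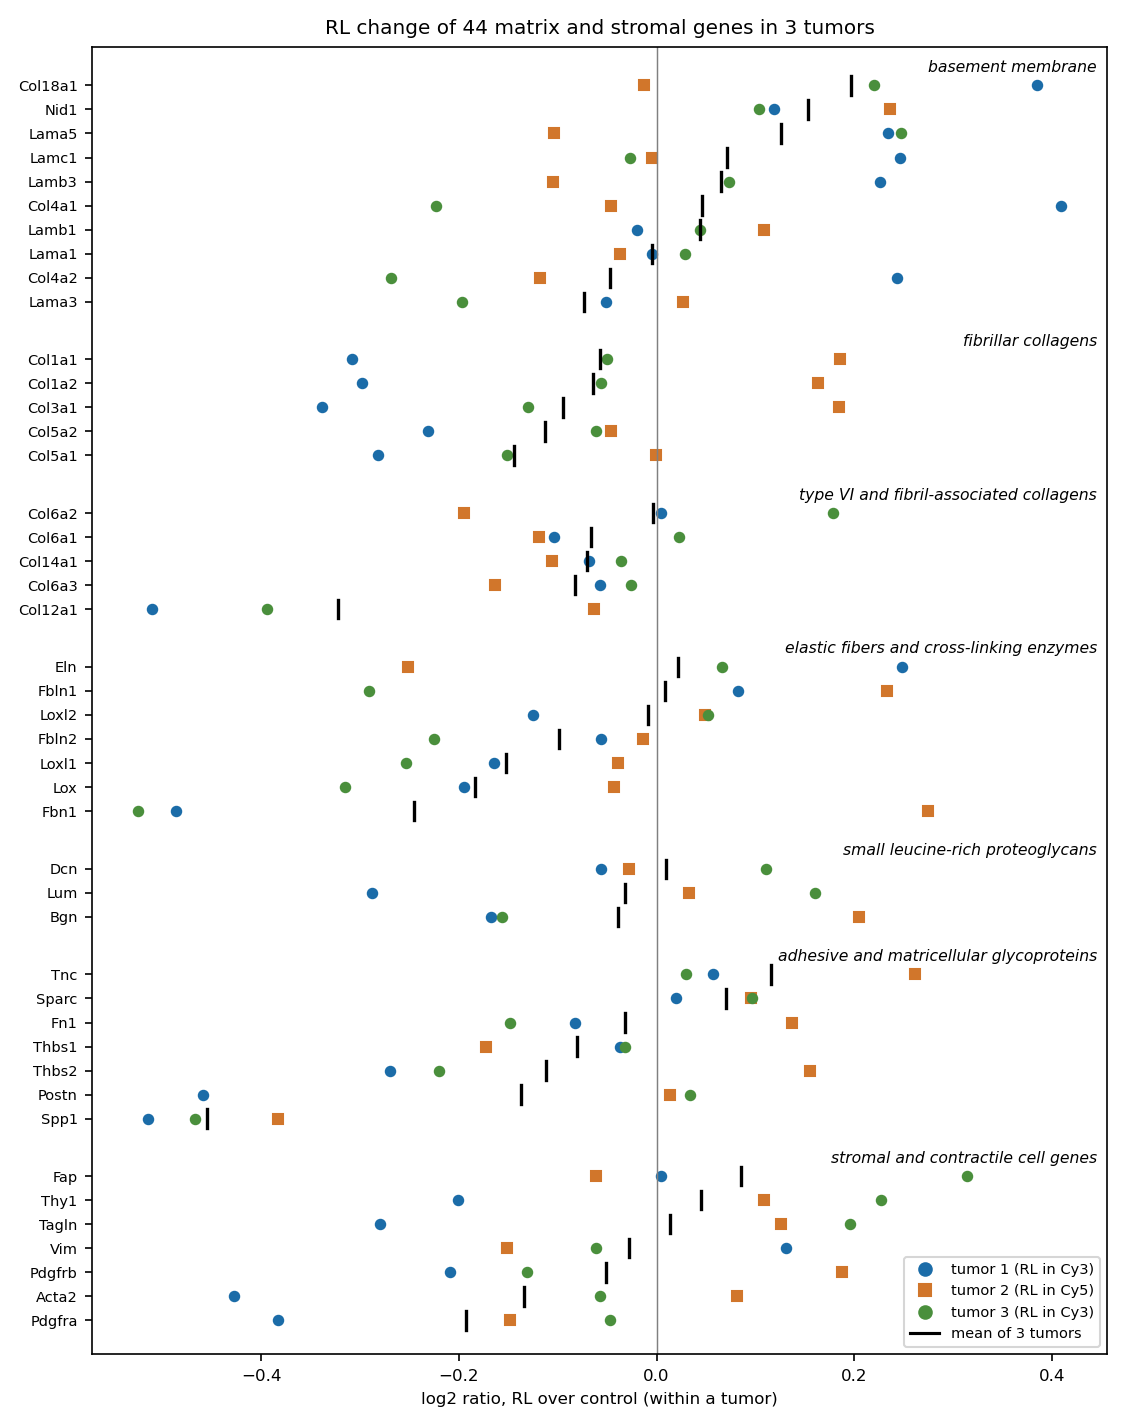
Log2 ratio of RL over control (horizontal axis) of the 44 tested genes in tumors 1, 2 and 3 (colored points) with their mean (black bar), by list. Most points lie within 0.5 of 0, the tumors often fall on opposite sides of it, and Spp1 at -0.51, -0.38 and -0.47 is the gene farthest below 0 in mean.

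Spp1 had the largest mean change of the 44 genes. Its control cultures were at 15.76, 15.15 and 15.19 and its RL cultures at 15.25, 14.77 and 14.72 in tumors 1, 2 and 3. RL over control was thus -0.51, -0.38 and -0.47, a mean of -0.45 with an SE of 0.0695 (n = 3 tumors). It was lower in 3 of 3 tumors, but the adjusted p was 0.125 from limma. The adjusted p was 0.000505 from limma with a dye term, and 0.0426 by rank product. Tumor 2 alone has the other dye order, so the dye term leaves fewer residual degrees of freedom than the main fit. Its p therefore rests more on the spread over all genes. The rank product covers only the direction of the observed mean, while limma covers both, so these adjusted p are not alike. The interval left by omitting each tumor in turn was -0.49 to -0.42.

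The promoters of Spp1 and of the collagen genes Col1a2 and Col3a1 are shown because Spp1 moved most with RL, and because the ratios and levels of the type I and III collagens followed each other over the tumors. Col1a1 was not in the promoter table, which held 26 of the 45 genes. Each sequence is the 150 bases before the annotated start (RefSeq, GRCm38.p6), with CCAAT or its reverse complement ATTGG and TATAAA or its reverse complement TTTATA in capitals. They lie on the plus strand at chr5:104434961-104435110 for Spp1, chr6:4505468-4505617 for Col1a2 and chr1:45311388-45311537 for Col3a1.
Spp1: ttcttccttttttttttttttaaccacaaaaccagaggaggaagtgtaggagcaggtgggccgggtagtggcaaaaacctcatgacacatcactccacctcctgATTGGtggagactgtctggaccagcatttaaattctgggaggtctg
Col1a2: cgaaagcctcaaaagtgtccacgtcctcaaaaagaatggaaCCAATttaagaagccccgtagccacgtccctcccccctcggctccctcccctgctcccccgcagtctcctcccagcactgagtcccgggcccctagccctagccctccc
Col3a1: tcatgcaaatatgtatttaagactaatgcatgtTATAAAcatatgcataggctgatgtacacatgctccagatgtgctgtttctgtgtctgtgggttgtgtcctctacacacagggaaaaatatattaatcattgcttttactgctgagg
The Spp1 and Col1a2 stretches held CCAAT or ATTGG, as did 24.5% of all 32851 promoters over the same length, and the Col3a1 stretch held TATAAA, as did 7.57%. A match is a description and does not show that a factor binds.

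Within the fibrillar collagens, the RL ratios of the 3 most studied chains lay close together in each tumor. Col1a1 was at -0.31, 0.19 and -0.05, Col1a2 at -0.30, 0.16 and -0.06, and Col3a1 at -0.34, 0.19 and -0.13 in tumors 1, 2 and 3. The ratios were below 0 in tumor 1 and above 0 in tumor 2, so the means of -0.06, -0.06 and -0.09 were smaller than the spread between tumors (adjusted p = 0.932, 0.921 and 0.898 from limma). Col5a1 had ratios of -0.28, -0.00 and -0.15, a mean of -0.14 (adjusted p = 0.774 from limma). Col5a2 had -0.23, -0.05 and -0.06, a mean of -0.11.

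Col12a1 came next to Spp1 in size, with -0.51, -0.06 and -0.39 and a mean of -0.32 with an SE of 0.093 (adjusted p = 0.476 from limma). Without tumor 2 its mean was -0.45 (adjusted p = 0.000586 from limma), and with the dye term -0.26 (adjusted p = 0.0837 from limma). Col6a1 was at -0.10, -0.12 and 0.02, with a mean of -0.07. Col6a3 was at -0.06, -0.16 and -0.03, with a mean of -0.08, and Col14a1, a fibril-associated collagen, at -0.07, -0.11 and -0.04, with a mean of -0.07. The Col14a1 probe was well above background in all 3 control channels and in 1 RL channel, so the filter favors a ratio below 0, and with no filter on dim probes the mean was 0.04 from another probe.

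Fbn1, which encodes the microfibril protein fibrillin 1, showed opposite signs by dye order, with -0.49 and -0.52 in tumors 1 and 3 and 0.28 in tumor 2. Its mean was -0.25 (SE 0.142; adjusted p = 0.794 from limma). Without tumor 2 it was -0.51 (adjusted p = 0.000151 from limma), and with the dye term -0.12 (adjusted p = 0.702 from limma). By their brightest passing probes Lox and Loxl1 were below 0 in all 3 tumors, Lox at -0.19, -0.04 and -0.31 and Loxl1 at -0.16, -0.04 and -0.25 (adjusted p = 0.700 and 0.738 from limma). The other passing probe of Loxl1 was at -0.00, 0.10 and -0.24, with a mean of -0.05. Fbln1 was at 0.08, 0.23 and -0.29, with a mean of 0.01. Of the proteoglycans, Bgn was at -0.17, 0.20 and -0.16 (mean -0.04), Lum at -0.29, 0.03 and 0.16 (mean -0.03) and Dcn at -0.06, -0.03 and 0.11 (mean 0.01).

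Of the adhesive and matricellular glycoproteins other than Spp1, Postn, which encodes periostin, was at -0.46 in tumor 1 and at 0.01 and 0.03 in tumors 2 and 3, a mean of -0.14 with an SE of 0.102. Tnc was at 0.06, 0.26 and 0.03, with a mean of 0.12 (adjusted p = 0.815 from limma), and its second passing probe had a mean of 0.26. Fn1 was at -0.08, 0.14 and -0.15, and its mean of -0.03 had an SE of 0.079. Sparc was at 0.02, 0.10 and 0.10 by its brightest probe, and its other probes had means of -0.02 and -0.08.

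In the basement membrane, Col18a1 was at 0.38, -0.01 and 0.22, with a mean of 0.20 and an SE of 0.087 (adjusted p = 0.709 from limma). Without tumor 2 its mean was 0.30 (adjusted p = 0.027 from limma), and with the dye term 0.14 (adjusted p = 0.563 from limma). These values are from the brightest probe, and the other passing probe of Col18a1 was at 0.19, 0.04 and -0.00, with a mean of 0.08. Nid1, which encodes the linker nidogen 1, was at 0.12, 0.24 and 0.10, a mean of 0.15 (SE 0.07; adjusted p = 0.720 from limma). Its other passing probe had a mean of -0.07. Lama5 was at 0.23, -0.10 and 0.25, with a mean of 0.13. Lamb3 was at 0.23, -0.10 and 0.07 and Lamc1 at 0.25, -0.00 and -0.03, each with a mean of 0.07. Centering each array on its median put Nid1, Lama5, Lamb3, Lamc1 and Col4a1 below 0, but relative to the shift of all genes they stayed above it, at 0.10, 0.09, 0.01, 0.04 and 0.02.

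Col4a1 and Col4a2 lie head to head on chromosome 8. Their annotated starts, at 11312826 on the minus strand for Col4a1 and 11312805 on the plus strand for Col4a2 (RefSeq, GRCm38.p6), are 21 bases apart. Their ratios had the same sign in each tumor. Col4a1 was at 0.41, -0.05 and -0.22 and Col4a2 at 0.24, -0.12 and -0.27 in tumors 1, 2 and 3. The signs differed between tumors, and the means were 0.05 and -0.05 (adjusted p = 0.955 and 0.944 from limma).

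Of the stromal and contractile genes, Pdgfra alone was below 0 in all 3 tumors, with -0.38, -0.15 and -0.05, a mean of -0.19 and an SE of 0.082 (adjusted p = 0.700 from limma). Pdgfrb was at -0.21, 0.19 and -0.13. Acta2 was at -0.43, 0.08 and -0.06, with a mean of -0.13. Fap, a protease of activated fibroblasts, was at 0.00, -0.06 and 0.31, with a mean of 0.09, and Vim at 0.13, -0.15 and -0.06, with a mean of -0.03. The whole fibroblast marker list had a median ratio of -0.05, with -0.29, 0.14 and -0.05 in tumors 1, 2 and 3. In tumor 1 it lay below 0 along with the interstitial matrix, and 9 of its 10 tested genes were below 0 there, against 11320 of 21721 over all genes. The lists share Col1a1, Col1a2, Col3a1, Dcn and Lum, so their medians are not independent. The part of the fibroblast markers in the tumor 1 ratios was not tested. The myoepithelial or basal list had medians of 0.03, 0.01 and -0.06, and the luminal list 0.16, -0.17 and -0.06.

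Of the 11 genes with several probes, 8 had more than 1 passing probe, and for 4 of these (Fbln1, Lama3, Nid1 and Sparc) the mean ratios of the probes differed in sign. For 4 of the 8 (Col18a1, Loxl1, Loxl2 and Sparc) the probes differed on whether the level range was over 1, and for 3 (Loxl2, Nid1 and Sparc) on the highest or lowest tumor. The remaining matrix and stromal genes, among them Eln, Fbln2, Loxl2, Thbs1, Thbs2, Lama1, Lamb1, Tagln and Thy1, had means between -0.11 and 0.05.

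Genes outside the 45 were read as lists, and limma called 0 of them at an adjusted p of 0.05 in either direction. The shares of all genes to set beside the counts below are 3.5% higher and 3.58% lower at an unadjusted limma p under 0.05, 0.566% and 0.745% with the dye term, and 0.147% and 0.207% by rank product. Of the 16 further basement membrane genes tested, Hspg2, which encodes perlecan, was at 0.72, -0.05 and -0.01, with a mean of 0.22 (adjusted p = 0.805 from limma). Unadjusted, 1 of the 16 was higher and 1 lower, and the dye term and the rank product called 0. Of 31 further interstitial genes, 24 were tested, with 2 higher and 4 lower at an unadjusted p under 0.05, and 0 by rank product. The dye term called 2 higher and 3 lower. The largest means were -0.42 for Fbln5, an elastic fiber protein (-0.73, -0.31 and -0.21), and 0.41 for Ltbp2, which binds fibrillin microfibrils (0.81, 0.18 and 0.24), with adjusted p of 0.393 and 0.476 from limma and 0.00952 and 0.0274 from limma with a dye term.

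All 16 collagen processing enzymes were tested, with 0 higher and 1 lower unadjusted, and 0 by the dye term or the rank product. Plod1, a lysyl hydroxylase, had a mean of -0.20 and P4hb, a subunit of prolyl hydroxylase, a mean of -0.15. All 20 matrix receptors were tested, with 1 higher and 2 lower unadjusted, 1 lower by the dye term and 0 by rank product. The largest means were -0.47 for Itga11, a collagen-binding integrin chain (-1.06, -0.01 and -0.33), and 0.25 for Dag1, which encodes the laminin receptor dystroglycan (0.74, -0.02 and 0.03). Of 12 genes of the TGF-beta pathway, which drives matrix production in fibroblasts, 0 were higher and 3 lower unadjusted, 2 were lower by the dye term and 0 by rank product. Tgfb3, a TGF-beta ligand, was at -0.42, -0.49 and -0.24 with a mean of -0.38 (adjusted p = 0.242 from limma and 0.00134 from limma with a dye term). Tgfbr3, a co-receptor, was at -0.30, -0.19 and -0.32 with a mean of -0.27 (adjusted p = 0.418 from limma).

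Among the cell type markers, limma likewise called 0, with 1 fibroblast, 3 pericyte and 1 myeloid marker lower and 0 higher at an unadjusted p under 0.05. The dye term called 1 pericyte marker lower and the rank product 0. The largest means of each list were -0.19 for Pdgfra and -0.09 for Col3a1 among fibroblast markers, -0.27 for Cnn1 and -0.19 for Krt14 among myoepithelial or basal markers, and -0.33 for Krt18 and -0.14 for Elf5 among luminal markers. Krt18, the brightest gene of the luminal sums, was at -0.73, 0.43 and -0.70 in tumors 1, 2 and 3, with the sign of tumor 2 opposite as its dye order was, and its mean with the dye term was -0.14. They were -0.36 for Abcc9 and -0.28 for Kcnj8 among pericyte markers, -0.11 for Pecam1 and 0.10 for Kdr among endothelial markers, and -0.23 for Cd68 and -0.09 for Lyz2 among myeloid markers. Cd4 had a mean of -0.04, Cd3e of 0.00 and Retn of -0.02.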

How the data were processed

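RNA from 3 pairs of PyMT tumor cultures, RL and control, was hybridized to 3 Agilent arrays of 1 slide. The authors read spot and background intensity with Agilent Feature Extraction 10.7.3.1 and deposited median intensities, processed signals and log10 ratios of Cy5 over Cy3. The authors also deposited normalized log2 ratios. The methods describe such ratios as condition over control, but over spots above background the deposited values ran as Cy5 over Cy3, which is control over RL in tumors 1 and 3 (Pearson's r of 0.897, 0.862 and 0.886 with the log10 ratios in tumors 1, 2 and 3; medians 0.00, -0.00 and 0.00).

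In R 4.3.3 with limma 3.58.1, median intensities were background-corrected by normexp (offset 50), normalized by loess on intensity (span 0.3) and on place on the array (span 0.1), and by Aquantile between arrays. Control spots (3671 of each array, beside 59305 probe spots) and outlier spots (204, 195 and 223) were left out. Accessions matched 28026 probes to 21154 symbols of the RefSeq table. A gene's brightest passing probe stood for it. RL over control was fitted by lmFit, moderated by eBayes (degrees of freedom 2 residual, 6.65 prior) and adjusted by Benjamini-Hochberg over 21743 genes and transcripts, with a threshold of 0.05. Cultures of a tumor are paired by the labels and share an array. The fit with a dye term had fewer residual degrees of freedom. The rank product used a gamma approximation with Benjamini-Hochberg adjustment within each direction, and kept for each gene the direction of its mean. The methods mention dye swaps of each sample, and 1 array per tumor was analysed here.

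The members and lists were chosen with earlier results of these data known. Genes named in full are those past the adjusted p, the 3 largest mean changes of each list, a set of defining genes, the 5 widest ranges of level and up to 2 of the largest mean changes of each further list. The alternatives were other background corrections and normalizations, filters on dim probes, the mean over probes, a dye term, the rank product, an intensity trend with robust moderation, no pairing, the authors' log2 ratios and each tumor left out. Programs were tested on simulated data.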

Additional observations from a re-analysis of the deposited data

How the results depend on the processing

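Over the alternatives, 640 of 703 values of single genes kept their sign and their side of the threshold, 57 changed sign and 6 passed the threshold. Some alternatives could change no sign, because they use the log2 changes of the main fit. These are no Aquantile, the rank product, the intensity trend with robust moderation and no pairing. The share of values that kept their sign is therefore raised by them. Of the 57 sign changes, 11 came with median centering, and 8 of those kept their sign relative to its shift of all genes. Under all alternatives Spp1 stayed below 0, and its adjusted p passed 0.05 with the dye term, by rank product and without tumor 2. The number of genes called lower was 1 with the dye term and 1 by rank product, and when each tumor was left out in turn it was 0 to 3, with 0 to 1 called higher. Fitting the cultures with no replicate block, that is without the pairing by tumor, called 0 genes higher and 0 lower. Its mean changes equal those of the main fit by construction. The median changes of 0.06, -0.07 and -0.03 for the basement membrane, interstitial and stromal lists could therefore not move. Dropping the pairing changed no call among these genes. Over all genes, 1 was called higher and 5 lower in the main fit, 0 and 0 with no replicate block, 6 and 12 with no background correction, 14 and 29 with an intensity trend and robust moderation, 2 and 7 with the authors' log2 ratios, and 0 and 0 with processed signals or median centering.

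Median centering in place of loess gave medians of -0.094 for the basement membrane, -0.22 for the interstitial and -0.18 for the stromal list, with all genes at -0.11. With each tumor left out in turn, the medians ranged from -0.0098 to 0.10, from -0.14 to -0.033 and from -0.046 to 0.028. The number of genes with a level range over 1 was 24 to 32 under other ways of processing and, in alternatives added after seeing the data, 13 to 19 with a tumor left out and 23 among genes with a mean level of at least 8.

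The log2 change turned sign as follows. With no background correction it was 0.015 for Lama1, 0.0094 for Col6a2, -9.7e-05 for Fbln1, 0.00043 for Loxl2 and -0.0033 for Tagln. With the scanner software's processed signals it was 0.027 for Lama1, -0.0059 for Lamb1, -0.023 for Dcn and -0.022 for Tagln. With median centering, where the shift of all genes enters, it was -0.090 for Col4a1, -0.024 for Lama5, -0.11 for Lamb1, -0.098 for Lamb3, -0.074 for Lamc1, -0.0090 for Nid1, -0.12 for Dcn, -0.090 for Sparc, -0.018 for Tnc, -0.14 for Tagln and -0.14 for Thy1. Relative to that shift, 8 of these 11 kept their sign, and Dcn, Tagln and Thy1 turned, at -0.0042, -0.025 and -0.029. Col6a2 and Col14a1, not among these 11, were at -0.025 and -0.022 with median centering. Both were below 0 in the main fit and lay above the shift of -0.11 here. With no filter on dim probes it was 0.045 for Col14a1, and with the mean over probes -0.039 for Fbln1 and -0.0081 for Sparc. With the dye term it was 0.0032 for Col1a1, -0.047 for Eln, 0.0060 for Loxl2, -2.3e-05 for Dcn, 0.022 for Bgn, 0.011 for Fn1 and 0.0089 for Pdgfrb. With a tumor left out, the ranges that crossed 0 were -0.13 to 0.18 for Col4a1, -0.19 to 0.063 for Col4a2, -0.021 to 0.012 for Lama1, -0.016 to 0.15 for Lamb3, -0.016 to 0.12 for Lamc1, -0.18 to 0.068 for Col1a1, -0.18 to 0.053 for Col1a2, -0.23 to 0.027 for Col3a1, -0.095 to 0.092 for Col6a2 and -0.092 to 0.16 for Eln. They were -0.10 to 0.16 for Fbln1, -0.038 to 0.050 for Loxl2, -0.042 to 0.042 for Dcn, -0.13 to 0.096 for Lum, -0.16 to 0.025 for Bgn, -0.12 to 0.027 for Fn1 and -0.22 to 0.024 for Postn. They were -0.11 to 0.035 for Vim, -0.24 to 0.012 for Acta2, -0.077 to 0.16 for Tagln, -0.17 to 0.028 for Pdgfrb, -0.028 to 0.16 for Fap and -0.046 to 0.17 for Thy1. The cause was not tested. The genes that turned sign include bright ones such as Fn1 and Sparc as well as dim ones.

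Signal over background limits which genes were read: Col15a1 was not tested, and Col14a1 cleared background in 1 of 3 RL channels. With 3 tumors and unbalanced dyes, a change in the RL ratio shared by tumors 1 and 3 alone cannot be told apart from the dye order.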
